A study of Solanum lycopersicum with 12 samples.

Results

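The 8 genes given as stress and senescence NAC transcription factors of tomato (Solanum lycopersicum) were followed across treatments with abscisic acid (ABA) or the compound iSB09. The genes were taken from the deposited count table by a list of 8 IDs, out of 34075 gene IDs in all, and all 8 had enough reads to be tested. The list gives its IDs as Solyc05g007770, Solyc04g005610, Solyc12g013620, Solyc07g063410, Solyc04g009440, Solyc02g088180, Solyc03g115850 and Solyc06g069710, and names them together as NAP1, NAP2, JA2, JA2L, NAC1 and ORE1-like NAC factors. No annotation used here pairs an ID with one of these names, and membership of the NAC family was not checked, so each gene is called by its ID and no role is given to a single ID.

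Whole wild-type seedlings were moved 3 days after germination into 3 ml of liquid Murashige and Skoog medium and grown there for a further 8 days (22 °C, days of 16 h light and 8 h dark). Fresh medium then held 0.1% DMSO (mock), 10 µM ABA, 20 µM iSB09 or 10 µM iCB for 3 h, with 3 samples per treatment that the design text calls independent biological replicates. DMSO is recorded for the mock medium only, so that solvent and treatment cannot be told apart. The 3 iCB samples have no column that matches their labels and are not analysed here.

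NAC proteins form a large family found only in plants. They share a DNA-binding domain near the N-terminus and differ in the C-terminal part that activates transcription. In Arabidopsis, NAP and ORE1 are known to promote leaf senescence, with NAP acting downstream of ABA and ORE1 downstream of ethylene. In tomato, JA2 is known from guard cells, where ABA induces it and it raises ABA synthesis as stomata close, whereas JA2L is known for the reopening of stomata through salicylic acid metabolism. Tomato NAP2 is known to act on ABA levels in senescing leaves, and tomato NAC1 from responses to pathogens and from fruit ripening.

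The 9 libraries used held 21863058 to 22098966 counts each. Levels are given as CPM, the count scaled to a common library total, with library sizes scaled by the trimmed mean of M values (TMM). They are not divided by transcript length, so they compare libraries within a gene and not one gene with another. The 15 listed photosynthesis genes in the table stand for the shoot. They summed to 29060 to 40690 CPM in mock, 30340 to 41300 in iSB09 and 29880 to 40800 in ABA. With either treatment 0 of them were called (likewise 0 by unadjusted p, DESeq2 or limma voom). Among all genes tested, 9.76% were called higher and 9.9% lower with ABA, and 2.63% and 2.48% with iSB09. A count of 0 among 15 does not show that the share of shoot tissue was unchanged. The single listed root gene, Solyc09g090070.1, was present at 121 to 166 CPM in mock, and both treatments lowered it, to 54.7 to 100 CPM in iSB09 and 49.7 to 56.3 in ABA.

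The response to ABA is taken from the 3 ABA and 3 mock libraries. ABA raised 4 of the 8 NAC genes and lowered 0 (unadjusted p was under 0.05 for 1, DESeq2 called 1 and limma voom 0); among all 21424 genes tested, 9.76% were called higher and 9.9% lower. Called means an adjusted p under 0.05 in edgeR's quasi-likelihood test, with Benjamini-Hochberg adjustment over all genes tested. The log2 fold changes of the 8 genes ran from -0.69 to 3.70, with a median of 1.02, against a median of 0.00 over all genes tested. The 8 genes were chosen with earlier results of these data known. Such shares and medians, with ABA or iSB09, therefore do not test them as a set. In bulk RNA of whole seedlings, more cells that express a gene and more RNA per cell cannot be told apart.

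Solyc07g063410.3 gave the largest change of the 8. It stood at 2.09, 2.75 and 2.34 CPM in mock replicates 1 to 3, at 11.8, 17.4 and 15.5 CPM in iSB09 and at 37.3, 32.4 and 23.9 CPM in ABA. The 3 groups did not overlap, and iSB09 lay between the others. Against mock, ABA raised it by 3.70 ± 0.21 on the log2 scale (SE; adjusted p = 1e-06), a 13-fold change, and iSB09 by 2.63 ± 0.21 (adjusted p = 6.4e-05), a 6.21-fold change. The direct comparison placed iSB09 below ABA (log2 fold change -1.07 ± 0.18, adjusted p = 0.0052). These 3 calls held under each of the 17 alternatives run.

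Solyc12g013620.2 followed the same order. It had 6.74, 16.1 and 14.7 CPM in mock replicates 1 to 3, 37.6, 39.1 and 45.7 CPM in iSB09, and 106, 86.3 and 78.8 CPM in ABA. Mock replicate 1 was the lowest library, and the groups did not overlap. ABA raised it by 2.85 ± 0.26 on the log2 scale (adjusted p = 1.9e-05), and iSB09 by 1.71 ± 0.25 (adjusted p = 0.0025). With iSB09 the level was lower than with ABA, at a log2 fold change of -1.14 ± 0.24 (adjusted p = 0.017). This last call ended without ABA replicate 1 (adjusted p = 0.075), ABA replicate 2 (0.052) or iSB09 replicate 1 (0.069), while the log2 fold change stayed between -1.23 and -1.02 under all alternatives.

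**Figure D1:**
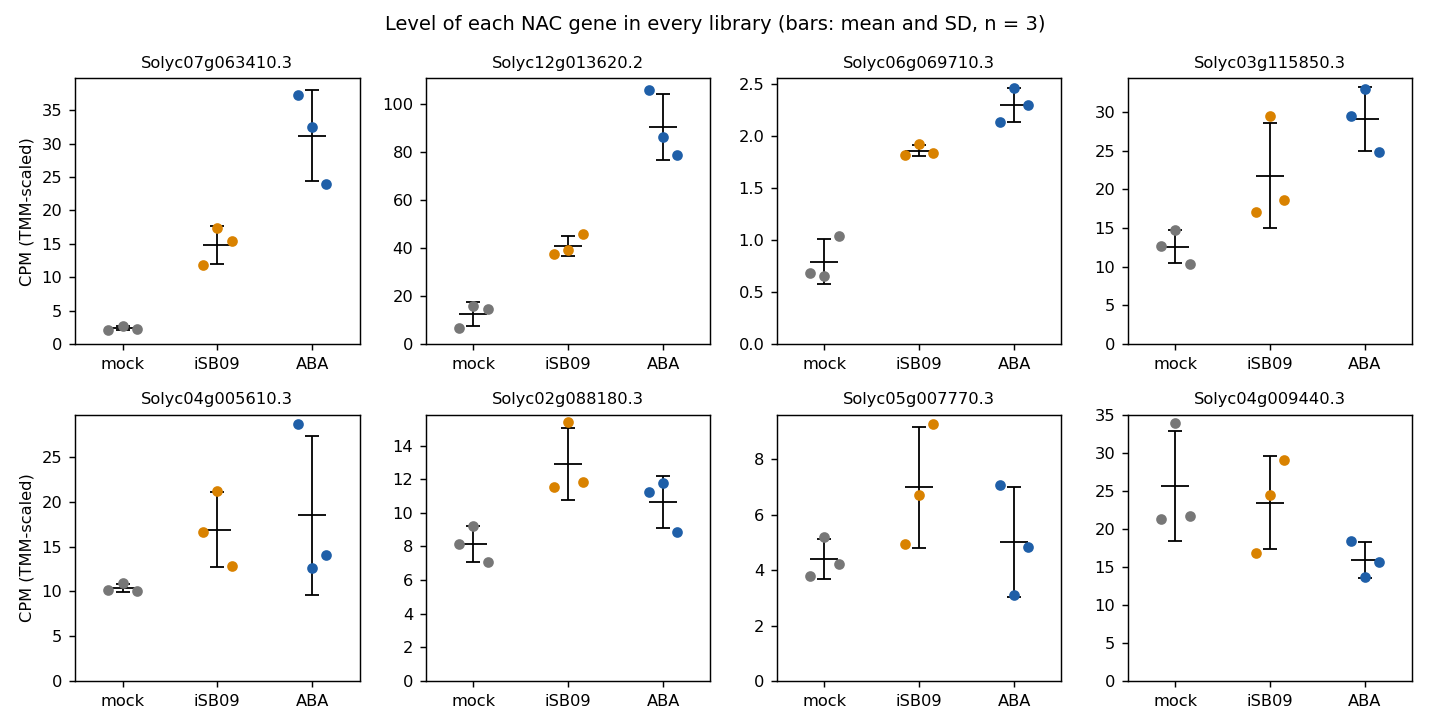
Level of each of the 8 NAC genes in TMM-scaled CPM (vertical axes from 0, one scale per gene) in mock, iSB09 and ABA. Points are libraries, replicates 1 to 3 from left to right, and bars give the mean and SD of 3. Solyc07g063410.3 and Solyc12g013620.2 rise in steps with no overlap between groups, while ABA replicate 1 stands apart in Solyc04g005610.3.

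A second pair of genes also rose with ABA, by less. Solyc06g069710.3 was the least covered of the 8, with 14 to 24 counts per mock library and 40 to 53 per treated library. Its levels were 0.683, 0.653 and 1.04 CPM in mock, 1.82, 1.92 and 1.84 CPM in iSB09 and 2.13, 2.46 and 2.29 CPM in ABA. Every treated library exceeded every mock library. The log2 fold change was 1.52 ± 0.23 with ABA (adjusted p = 0.00072) and 1.22 ± 0.23 with iSB09 (adjusted p = 0.011). The iSB09 call was lost without mock replicate 2, where the adjusted p, 0.05 when rounded, lay just above the threshold. All 3 iSB09 libraries were below all 3 ABA libraries, yet the difference between the treatments did not pass (log2 fold change -0.30, 95% interval -0.76 to 0.16; adjusted p = 0.56).

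Solyc03g115850.3 stood at 12.7, 14.7 and 10.4 CPM in mock, 17.1, 29.5 and 18.6 CPM in iSB09 and 29.5, 33.0 and 24.8 CPM in ABA. Each treated library was above the mock libraries, and iSB09 replicate 2 reached the range of ABA. ABA raised the gene by 1.21 ± 0.21 on the log2 scale (adjusted p = 0.0018). With iSB09 the log2 fold change was 0.79 ± 0.21 and did not pass (adjusted p = 0.058). It passed with DESeq2 (0.0078), library totals (0.035), no filter on low counts (0.044), the replicate number as a block (0.013), and without iSB09 replicate 1 (0.031). The difference between iSB09 and ABA did not pass (-0.42, 95% interval -0.87 to 0.02; adjusted p = 0.35), but did without iSB09 replicate 2, at -0.71 (adjusted p = 0.029).

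The remaining 4 genes were not called with ABA. Solyc04g009440.3 was the only one of the 8 with a negative log2 fold change, -0.69 ± 0.23 (adjusted p = 0.056). It had 21.3, 34.0 and 21.7 CPM in mock, 16.9, 24.6 and 29.1 CPM in iSB09 and 18.5, 13.7 and 15.6 CPM in ABA, so that each ABA library was below each mock library and iSB09 overlapped both. The ABA value was called lower with DESeq2 (adjusted p = 0.022), library totals (0.044), no filter on low counts (0.046), only the 6 libraries compared (0.032), and without mock replicate 1 (0.047), mock replicate 3 (0.049), iSB09 replicate 1 (0.031) or iSB09 replicate 3 (0.049). With iSB09 its log2 fold change was -0.13 (95% interval -0.62 to 0.36; adjusted p = 0.79).

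Solyc04g005610.3 had a narrow range in mock and a wide one with ABA. Its levels were 10.2, 10.9 and 9.99 CPM in mock, 16.6, 21.2 and 12.8 CPM in iSB09 and 28.7, 12.6 and 14.1 CPM in ABA. Every treated library was above every mock library, and ABA replicate 1 stood well above the other ABA libraries. The coefficient of variation was 4.71% in mock and 48.2% with ABA. The log2 fold change was 0.84 ± 0.29 with ABA (adjusted p = 0.066) and 0.70 ± 0.29 with iSB09 (adjusted p = 0.21). Without ABA replicate 1 the ABA value was 0.37 (adjusted p = 0.24), and without ABA replicate 2 it was 1.06 (adjusted p = 0.034). DESeq2 also called the ABA value (adjusted p = 0.021), and without ABA replicate 1 the iSB09 value passed (adjusted p = 0.049).

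Solyc05g007770.3 varied within the treated groups in a like way. It had 3.78, 5.18 and 4.24 CPM in mock, 4.96, 6.72 and 9.29 CPM in iSB09 and 7.07, 3.11 and 4.83 CPM in ABA, and the groups overlapped in all 3 comparisons. ABA replicate 1 was again the highest ABA library. The log2 fold change was 0.19 with ABA (95% interval -0.48 to 0.85; adjusted p = 0.72) and 0.67 with iSB09 (0.01 to 1.32; adjusted p = 0.24). Without ABA replicate 1 the ABA value turned to -0.15 (adjusted p = 0.79).

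Solyc02g088180.3 was the one gene of the 8 called with iSB09 and not with ABA. Its levels were 8.15, 9.19 and 7.05 CPM in mock, 11.5, 15.4 and 11.8 CPM in iSB09 and 11.3, 11.8 and 8.89 CPM in ABA. The iSB09 libraries were all above mock, while ABA replicate 3 was within the mock range. The log2 fold change was 0.67 ± 0.16 with iSB09 (adjusted p = 0.039) and 0.39 ± 0.16 with ABA (adjusted p = 0.12). The direct difference between iSB09 and ABA did not pass (0.28, 95% interval -0.07 to 0.63; adjusted p = 0.46), so the data do not show that this gene answered the treatments differently. The iSB09 call ended when only the 6 libraries compared were fitted (adjusted p = 0.069), without any 1 mock library (0.084, 0.058 and 0.11 without replicates 1, 2 and 3), without ABA replicate 1 or 2 (0.061 and 0.055), and without iSB09 replicate 2 or 3 (0.12 and 0.069).

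Taking the genes as a set, iSB09 at 20 µM raised 4 of 8 and lowered 0 (likewise 0 by unadjusted p, DESeq2 or limma voom), where 2.63% of all genes tested were called higher and 2.48% lower. The genes were Solyc07g063410.3, Solyc12g013620.2, Solyc06g069710.3 and Solyc02g088180.3, and the first 3 were also raised by ABA. The number was 2 without mock replicate 2 and 5 without iSB09 replicate 1. The log2 fold changes ran from -0.13 to 2.63, with a median of 0.74, against 0.00 over all genes tested. ABA and iSB09 were each set against the same mock libraries, so an agreement between these values can come in part from the shared controls. The size of that part was not tested. In 6 of the 8 genes every iSB09 library was above every mock library, which held for 11.3% of all genes tested; 0 of the 8 were lower in every library, against 11.2%. With ABA, 5 of the 8 were higher in every library and 1 was lower in every library, against 18.8% and 19.5% of all genes tested.

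**Figure D2:**
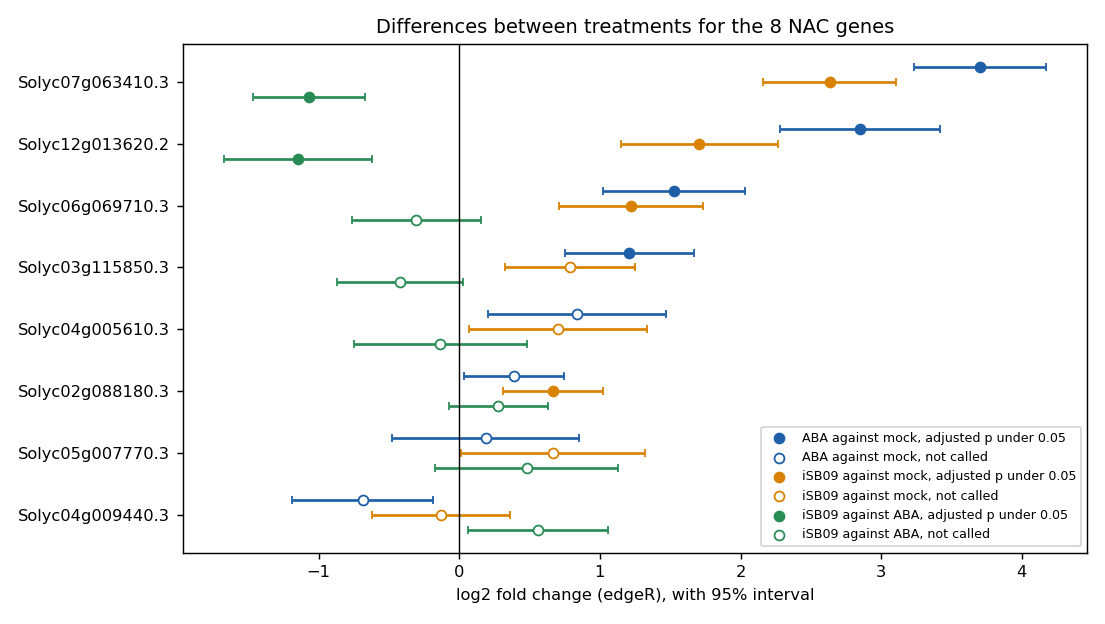
log2 fold changes of the 8 NAC genes (horizontal axis, edgeR) with 95% intervals for ABA against mock, iSB09 against mock and iSB09 against ABA. Filled points have an adjusted p under 0.05. The first 2 genes, Solyc07g063410.3 and Solyc12g013620.2, are filled in all 3 comparisons, and Solyc04g009440.3 has its interval below 0 with ABA.

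Set directly against each other, iSB09 and ABA were given at different doses, 20 µM and 10 µM. Of the 8 genes 2 were lower with iSB09, Solyc07g063410.3 and Solyc12g013620.2, and 0 were higher (unadjusted p was under 0.05 for 1, DESeq2 and limma voom called 0), where 4.1% of all genes tested were called lower and 1.76% higher. The number lower was 1 without ABA replicate 1, ABA replicate 2 or iSB09 replicate 1. It was 3 when iSB09 replicate 2 was left out, where Solyc03g115850.3 was called too. The levels with iSB09 were 0.477 and 0.452 of those with ABA. For the other 6 genes the 95% intervals of the log2 fold change reached from -0.87 at the lowest to 1.13 at the highest. None of the 6 passed the adjusted threshold, which does not show that iSB09 and ABA act alike on them. In 3 of the 8, Solyc06g069710.3 being the third, every iSB09 library was below every ABA library, which held for 13% of all genes tested; 0 were higher in every library, against 10.1%.

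In order of level, ABA was highest, iSB09 next and mock lowest in 5 genes: Solyc07g063410.3, Solyc12g013620.2, Solyc06g069710.3, Solyc03g115850.3 and Solyc04g005610.3. Only the first 2 of these had neighbours that all differed by the test. In Solyc06g069710.3 the step from iSB09 to ABA did not pass, in Solyc03g115850.3 neither the step from mock to iSB09 nor that from iSB09 to ABA passed, and in Solyc04g005610.3 no pair of groups passed. In Solyc02g088180.3 and Solyc05g007770.3 iSB09 was highest and mock lowest, and the one difference that passed was that between iSB09 and mock in Solyc02g088180.3. In Solyc04g009440.3 mock was highest and ABA lowest, with no pair past the threshold.

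**Figure D3:**
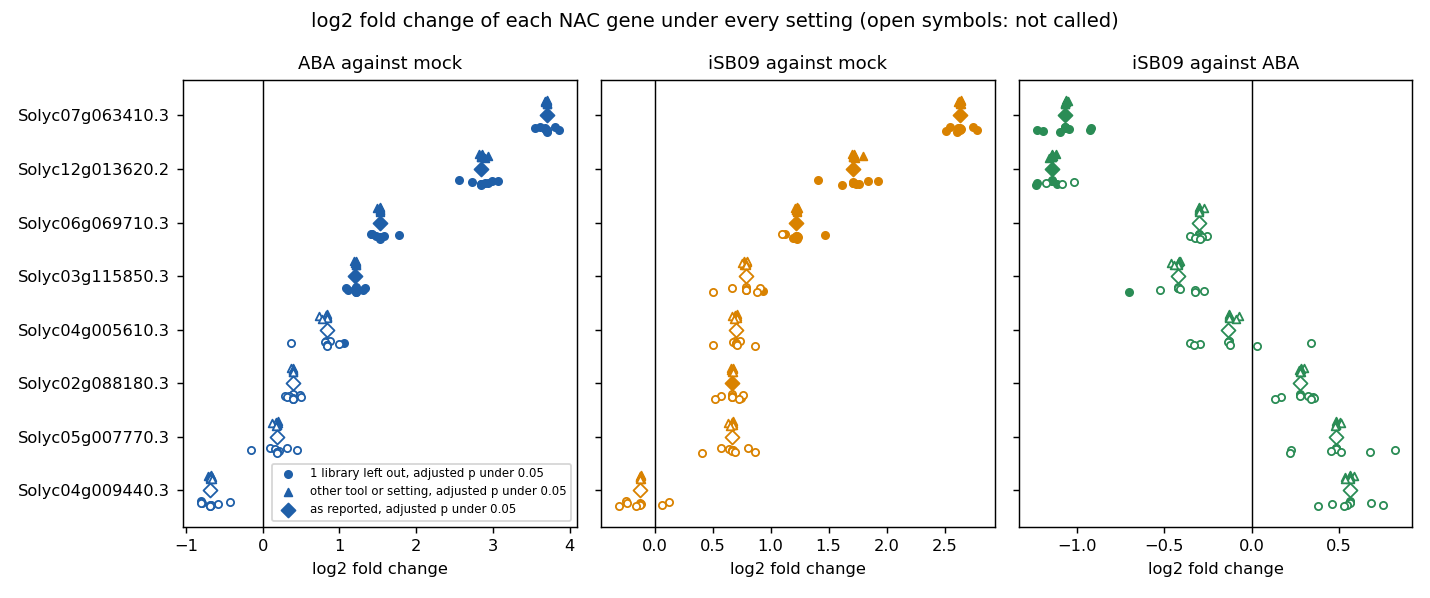
log2 fold change (horizontal axes) of each NAC gene in the 3 comparisons, as reported (diamonds), with 1 library left out (circles) and with another tool or setting (triangles). Filled symbols have an adjusted p under 0.05 and open ones do not. Left-out libraries moved Solyc04g005610.3 with ABA between 0.37 and 1.06, whereas Solyc07g063410.3 stayed between 3.55 and 3.86.

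The profiles over the 9 libraries were compared by the root mean square difference of log2(CPM + 1) after centring each gene. Genes were not scaled, so the measure takes in the size of a change as well as its shape. It is small for genes of low level or little change. Among the 8 genes this difference ran from 0.295, between Solyc06g069710.3 and Solyc03g115850.3, to 1.6, between Solyc07g063410.3 and Solyc04g009440.3. Solyc07g063410.3 and Solyc12g013620.2 were each other's nearest of the 8, at 0.353. Among all genes tested, 37 were nearer to Solyc07g063410.3, led by Solyc04g005020.3 at 0.183. For Solyc12g013620.2, 13 were nearer, led by Solyc06g084330.3 at 0.182. For the other 6 genes, between 272 and 7196 genes outside the list were nearer than the nearest of the 8. Such counts also depend on how many genes have a low level or little change. They therefore do not show whether the 8 genes shared 1 profile.

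Genes that the literature links to these factors were read from lists written from general knowledge, whose membership was not checked either. These lists too were drawn up with earlier results of these data known. A list of 8 genes mixed chlorophyll breakdown, which marks leaf senescence, with greening. Of these 8, ABA raised 3 and lowered 0 (likewise 0 by unadjusted p, DESeq2 or limma voom). The list's median log2 fold change was 0.13. Over all genes tested, 9.76% were called higher and 9.9% lower with ABA, 2.63% higher with iSB09 and 4.1% lower with iSB09 than with ABA. The number raised by ABA was 2 without mock replicate 1 or 3 and without any 1 ABA library. The 3 raised genes were led by Solyc07g024000.3, with 1.26 ± 0.10 (adjusted p = 9.4e-06), and Solyc08g080090.3, with 1.20 ± 0.18 (adjusted p = 0.00074). With iSB09 1 of the 8 rose, Solyc07g024000.3 by 0.60 ± 0.10 (adjusted p = 0.0069), and 2 did with DESeq2 or without mock replicate 1. That gene was lower with iSB09 than with ABA (log2 fold change -0.67 ± 0.10, adjusted p = 0.0029), the only one of this list called in that comparison, while 2 were called with DESeq2, with limma voom, with only the 6 libraries compared, and without mock replicate 1 or 3.

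Of 4 other listed NAC factors in the table, 3 were tested, and 0 were called in any of the 3 comparisons. The shares of all genes tested called higher and lower were 9.76% and 9.9% with ABA, and 2.63% and 2.48% with iSB09. For iSB09 against ABA they were 1.76% and 4.1%. Beside these shares, a count of 0 among 3 does not set these genes apart, and their difference from the 8 was not tested. Unadjusted p was under 0.05 for 1 higher with ABA, 1 higher with iSB09 and 1 higher with iSB09 than with ABA; DESeq2 and limma voom called 0, and 1 was called higher with ABA without mock replicate 2. Solyc07g063420.3, whose ID follows directly on that of Solyc07g063410.3, had a log2 fold change of -0.13 ± 0.19 with ABA (adjusted p = 0.69) and 0.42 ± 0.18 with iSB09 (adjusted p = 0.24).

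Of 4 listed ABA synthesis genes ABA raised 2 and lowered 0 (unadjusted p was under 0.05 for 1, DESeq2 called 1 and limma voom 0), and iSB09 raised 1 and lowered 1. The 2 became 1 with library totals, without mock replicate 1 or 2 and without any 1 ABA library. The gene lowered by iSB09, Solyc08g016720.1, was called in refits with 1 library left out only without iSB09 replicate 1, and the raised one was lost without mock replicate 2. The gene raised by both was Solyc07g056570.1, at 7.51 CPM on average in mock, 16.8 in iSB09 and 37.5 in ABA. It was lower with iSB09 than with ABA (log2 fold change -1.16 ± 0.20, adjusted p = 0.0068), the only call of this list in that comparison. Of 4 listed ABA breakdown genes 3 rose with ABA and 1 with iSB09. Solyc08g075320.4 rose with both, by 4.44 ± 0.13 on the log2 scale with ABA (adjusted p = 2e-08) and 2.74 ± 0.13 with iSB09 (adjusted p = 2e-06). It was 1 of 2 in this list called lower with iSB09 than with ABA (-1.71 ± 0.11, adjusted p = 1.8e-05). In that comparison, 4.1% of all genes tested were called lower and 1.76% higher. Over all genes tested, 9.76% were called higher and 9.9% lower with ABA, and 2.63% and 2.48% with iSB09. The 2 listed salicylic acid methyltransferase genes, whose enzymes turn salicylic acid into its volatile methyl ester, gave 0 calls in the 3 comparisons. DESeq2 called 1 of them lower with ABA, as did leaving out ABA replicate 1, and limma voom called 0. Unadjusted p was under 0.05 for 1 lower with ABA and 1 higher with iSB09. Solyc09g091550.3 had a log2 fold change of -0.54 ± 0.19 with ABA (adjusted p = 0.068).

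**Figure D4:**
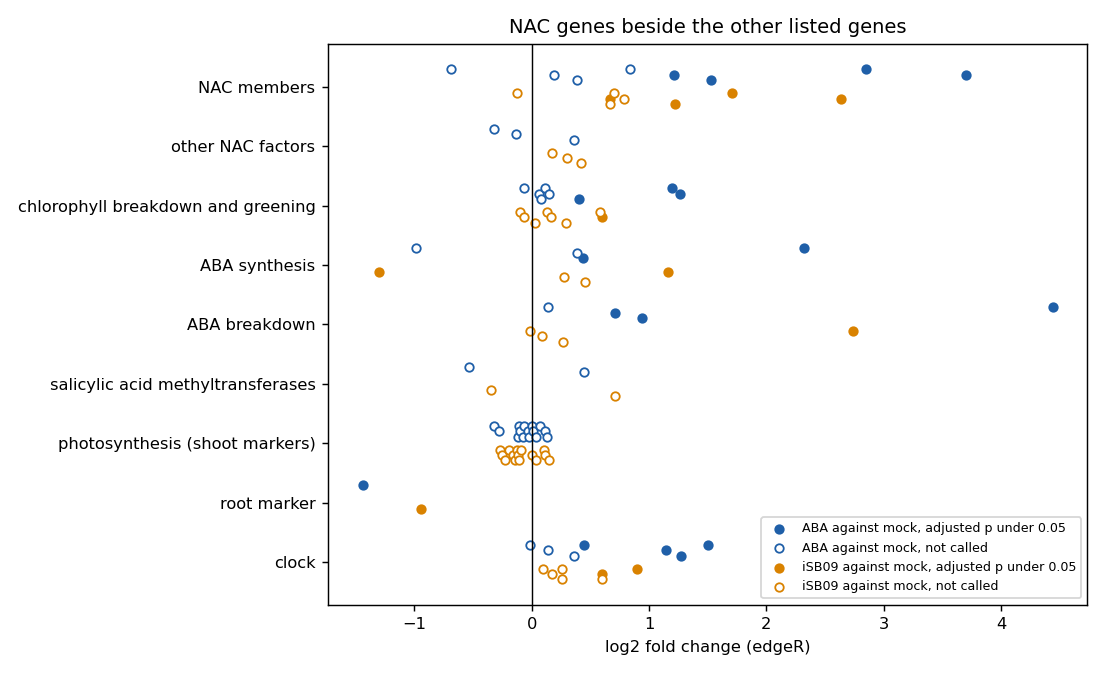
log2 fold change (horizontal axis) of every tested gene of the NAC list and of the other lists (rows), for ABA against mock and iSB09 against mock; filled points have an adjusted p under 0.05. The 2 NAC genes farthest to the right with ABA lie at 2.85 and 3.70, and the ABA breakdown gene Solyc08g075320.4 at 4.44. The 15 photosynthesis genes lie between -0.32 and 0.15.

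Clock genes, listed as markers of harvest time, moved with the treatments as well. ABA raised 4 of 7 and iSB09 raised 2 of 7, and 0 fell in either comparison (likewise 0 by unadjusted p, DESeq2 or limma voom). DESeq2 called 4 higher with iSB09. Over all genes tested, 9.76% were called higher and 9.9% lower with ABA, and 2.63% and 2.48% with iSB09. The summed level of the 7 clock genes was 712 to 808 CPM in mock, 821 to 1058 in iSB09 and 1085 to 1110 in ABA. None of the 7 was at 0. The root gene fell too, with log2 fold changes of -1.44 ± 0.20 with ABA (adjusted p = 0.00038) and -0.94 ± 0.19 with iSB09 (adjusted p = 0.018). Leaving out mock replicate 2 or iSB09 replicate 2 or 3 ended the iSB09 call. The part of harvest time or of the share of root tissue in the NAC results was not tested.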

How the data were processed

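Per the labels' protocols, RNA was taken with a plant RNA kit and made into strand-specific mRNA libraries for DNBSEQ sequencing. The authors deposited raw counts per gene in 1 table. FastQC, cutadapt, STAR and DESeq2 appear in the submitters' processing notes, with neither version nor role. The sources used here give no build, annotation, counting step or use of strand, so reads shared by related or overlapping genes may have been divided between IDs. Columns were matched to samples by name, and 3 columns whose name occurs in no label were not used. The planned comparisons with iCB were therefore not made, and the fits used 9 libraries.

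Genes passing edgeR's filterByExpr (21424 of 34075) were fitted with edgeR 4.0.16 in R 4.3.3, with TMM factors, 1 coefficient per treatment and two-sided quasi-likelihood tests, first tested on simulated data. SEs come from the F statistic and intervals are 95%. Levels are means of 3 libraries. Replicates differed by more than sampling noise, with chi-square per degree of freedom between 7.66 and 29.34. Beyond the design text's wording nothing says what was independent between replicates. The p-values therefore set each group difference against the spread between these samples, estimated over the 3 groups with information shared across genes.

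The NAC genes and all lists were chosen with earlier results of these data known, and no list was tested as a set. All 8 NAC genes are named. Of each other list at most 2 IDs with the smallest adjusted p were to be named per comparison, and the nearest profiles by the measure above; Solyc07g063420.3 follows this rule for iSB09; its ABA value was added after it was seen. Alternatives were DESeq2 1.42.0, limma 3.58.1 (voom), other factors and filters, a replicate block, 2-group fits and leaving out each library.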

Additional observations from a re-analysis of the deposited data

How the results depend on the processing

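The 8 NAC genes in 3 comparisons were refitted under 17 alternatives each. With ABA against mock 125 of the refitted values kept direction and side of the threshold, 10 newly passed and 1 reversed; with iSB09 against mock these were 119, 6 and 2, and 9 no longer passed; with iSB09 against ABA they were 130, 1 and 2, and 3 no longer passed. Reversals touched uncalled values only: Solyc05g007770.3 with ABA (-0.15 without ABA replicate 1, up to 0.45 with another library left out), Solyc04g009440.3 with iSB09 (0.13 without mock replicate 2, 0.06 without iSB09 replicate 1, down to -0.31) and Solyc04g005610.3 between iSB09 and ABA (0.34 without ABA replicate 1, 0.03 without iSB09 replicate 3, down to -0.35). The causes were not tested.

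The number of NAC genes lowered by ABA was 1 instead of 0 with DESeq2, library totals, no filter and only the libraries compared, and 0 to 1 with a library left out. The number raised by iSB09 ranged from 2 to 5 with a library left out, and the number lower with iSB09 than with ABA from 1 to 3. Over all genes, those lowered by ABA ranged from 1288 to 2361 with a library left out, against 2120. Those lowered by iSB09 ranged from 245 to 651, against 531, and were 319 with only the 6 libraries fitted. Between iSB09 and ABA, higher genes ranged from 181 to 406, against 378, and lower genes from 517 to 906, against 879.

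Among the other lists, ABA synthesis gave 1 higher gene with ABA under library totals, 1 to 2 with a library left out, and 1 lower with DESeq2, library totals or only the libraries compared (0 to 1 with a library left out). With iSB09 its lower gene was lost (0) with only the libraries compared, with the replicate block, and without most single libraries (0 to 1), and its higher gene without mock replicate 2 (0 to 1). Clock genes raised by iSB09 numbered 4 with DESeq2, and those lower with iSB09 than with ABA were 1 to 2 with a library left out. The root gene's fall with iSB09 was not called (0) with only the libraries compared or without mock replicate 2 or iSB09 replicate 2 or 3. ABA breakdown genes lower with iSB09 than with ABA ranged from 1 to 3 with a library left out, against 2. The chlorophyll list had 2 higher with iSB09 under DESeq2 and 2 lower than ABA under DESeq2, limma voom or only the libraries compared (1 to 2 with a library left out in both). The methyltransferases had 1 lower with ABA under DESeq2 (0 to 1 left out), and the other NAC factors 0 to 1 higher.

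Replicate numbers showed no clear pairing of the samples, though with 3 samples per group these correlations cannot exclude one. Same-numbered samples' deviations correlated between -0.185 and 0.341, over 0.1 in 1 of 9 pairs. The best partner had the same number in 6 of 18 cases. With the replicate block ABA raised 4 NAC genes and iSB09 5, and 2 were lower with iSB09 than with ABA. Mean levels of the 8 genes moved by less than 1 SD under both other scalings (library totals, median-of-ratios). Solyc06g069710.3 had the lowest counts of the 8 genes, and the effect of depth was not tested.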
